A study of Mus musculus with 182 samples.

Results

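Mitochondrial ribosomal protein genes are nuclear genes whose products are made in the cytosol and imported into mitochondria, where they assemble with mitochondrially encoded rRNA. The mitochondrial ribosome has a large and a small subunit and makes the few membrane proteins of the respiratory chain that the mitochondrial genome encodes. Many of its proteins descend from bacterial ribosomal proteins, and others have no bacterial counterpart. The egg supplies the mitochondria of the embryo, and mitochondrial DNA is known not to replicate appreciably in the mouse before the blastocyst.

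The members were taken as the autosomal genes with a symbol of Mrpl or Mrps, a number and an optional letter. There were 77 of them, 48 Mrpl and 29 Mrps genes, among 24499 genes counted, and no gene with such a symbol lay on a sex chromosome. The symbols name the subunit to which a protein was first assigned. The products of Mrps18a and Mrps30 are now placed in the large subunit, and that of Mrps36 in the 2-oxoglutarate dehydrogenase complex. A paternal share was available for 72 of the 77.

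RNA was measured in 182 single cells from naturally mated mice, each cell amplified from polyadenylated RNA primed at the 3′ end. There were 69 blastomeres labelled mutant, for a deletion of the Xist copy on the X chromosome from the father. Only the females among them can carry that deletion. All 69 were of the CB cross, the females from each stage between 8C (the 8-cell stage) and 64C, the males from 32C and 64C only. They were set against 106 blastomeres without the deletion (wild type) from 2C to 64C, of the cross BC (C57BL/6J mother, Cast/EiJ father) and the cross CB (Cast/EiJ mother, C57BL/6J father), and 7 oocytes without it, 4 of C57BL/6J (B6) and 3 of Cast/EiJ (Cast). Xist lies on the X chromosome and starts its inactivation, and males inherit no X chromosome from the father. The labels name no embryo. Counts were therefore summed over cells of the same stage, cross, sex and genotype into 31 groups, and each group was 1 sample, so p-values measure the spread between such groups. Of these groups, 4 hold 1 cell: 2C CB females, 2C BC males, 8C CB males and 16C CB males.

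Between 2.54 and 40.05 M reads were counted per cell, with a median of 8.78 M. The markers fitted the labelled stages: oocyte genes (Zp3, Gdf9, Bmp15, Oosp1 and Mos) summed to 15819 and 29559 CPM (counts scaled to a common total of 1 M reads per group) in the oocyte groups and to at most 21.7 CPM in wild-type 64C groups. Genes of 2-cell activation summed to 301 to 826 CPM at 2C and to at most 27.2 CPM in wild-type groups from 4C on. Cumulus and granulosa markers, from the cells that surround an oocyte, reached at most 3.10 CPM in oocytes. Trophectoderm markers ranged from 221 to 9020 CPM among the wild-type 64C groups, and whether this mixture of cell types bears on the members was not tested. Mutant female groups had 14.1 CPM of Xist at 8C and at most 0.920 CPM at later stages. Of the 7 mutant cells at 8C, those numbered 7 and 9 had 21.2 and 80.6 CPM against their label, and the others at most 2.16 CPM. Wild-type CB females from 8C to 64C had 35.5 to 125 CPM.

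The RNA of the whole family made up a small part of an oocyte's reads and, by stage means, a larger part at each stage after 4C. The 77 genes summed to 1255 ± 289 CPM in the 2 oocyte groups (SD over groups). The sum was 4466 ± 846 CPM in the 4 groups of 2C and 3479 ± 126 CPM in the 3 groups of 4C. It was 6052 ± 1827 CPM in 8C, 7230 ± 525 CPM in 16C, 7775 ± 1567 CPM in 32C and 9228 ± 429 CPM in 64C groups (SD, 4 groups of every stage). The 8C groups, at 3451 to 7530 CPM, overlapped the 4C groups, at 3334 to 3556 CPM. The mean at 64C was 7.35 times that of oocytes and 2.07 times that at 2C. All 64C groups, at 8619 to 9627 CPM, lay above all 2C groups, at 3311 to 5162 CPM, and the 2C groups lay above both oocyte groups. The Mrpl sum at 64C was 2.38 times that at 2C and the Mrps sum 1.56 times. Genes of the cytosolic ribosome, matched by symbol, summed to 3595 ± 1672 CPM in oocytes (n = 2), 57444 ± 17905 CPM in 2C and 162077 ± 19187 CPM in 64C groups (n = 4 each). In bulk sums of this kind, the CPM of a family depends on all other RNA in the cell, so more RNA of the members and less of the rest cannot be told apart.

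**Figure D1:**
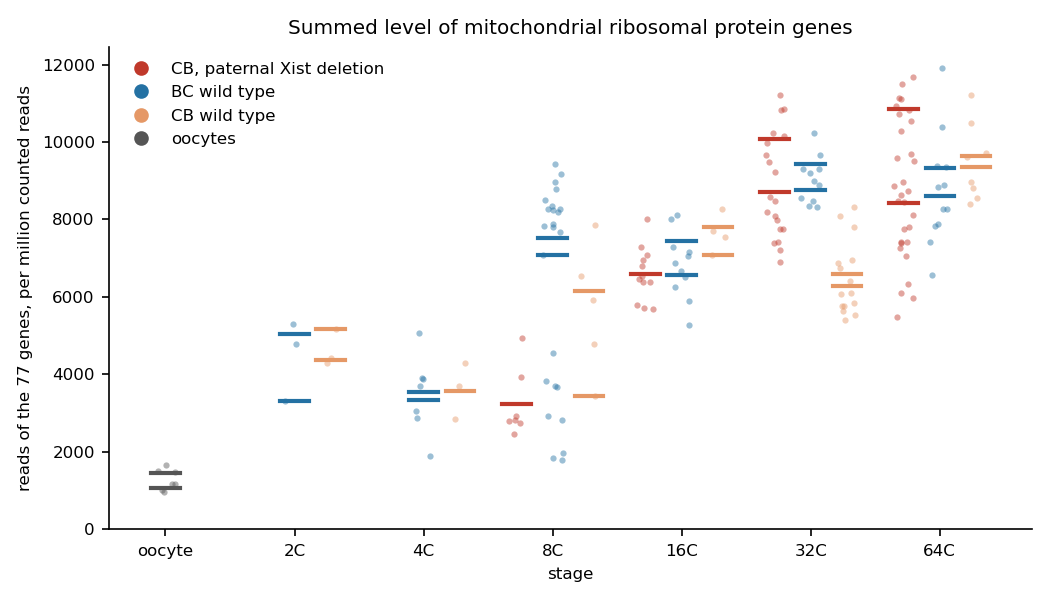
Summed level of the 77 mitochondrial ribosomal protein genes (y axis, CPM) by stage (x axis). Points are cells and bars are the groups of 1 sex, so 2 bars in 1 colour are females and males; at 8C the BC wild-type cells span 1773 to 9444 CPM.

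At 8C, cells of the same cross and stage differed widely. Wild-type BC cells with title numbers 1 to 14 had 1773 to 4545 CPM of members (median 2909, 9 cells), and those with title numbers 31 to 51 had 7070 to 9444 CPM (median 8261, 15 cells). The ranges did not overlap, and the labels do not say what the numbers mark. Total counts were 2.72 to 9.35 M in the cells with lower numbers and 9.09 to 12.8 M in those with higher numbers, and 2-cell markers reached 58.4 and 11.8 CPM. Their part in the difference was not tested. Cells of 8C mutants had 2453 to 4942 CPM, and wild-type CB cells of that stage 3451 to 7859 CPM.

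Levels of different members were compared on the authors' normalized signal, averaged over the 25 wild-type groups. Its ratio to CPM differs between genes and between cells, and it was taken to be scaled for depth and gene length, although its definition is not among the labels used here. Mrps18b, a small-subunit member of the S18 family, was highest at 383 ± 210 (SD, n = 25 groups). It was followed by Mrpl40 at 260 ± 170, Mrpl18, of the central protuberance, at 251 ± 108, Mrpl20 at 230 ± 126 and Mrpl22 at 221 ± 144. Neighbours in this order differed by less than their SDs. The lowest by this signal were Mrps25 at 5.59 ± 3.24, Mrpl1 at 11.8 ± 11.3 and Mrpl19 at 14.2 ± 9.77. These spreads span all stages. The order in CPM was not the same. In 64C groups Mrpl19 had 88.0 to 158 CPM, and Mrpl52, with a higher mean signal of 25.3, had 19.6 to 46.9 CPM. Whether scaling for length suits RNA primed at the 3′ end was not tested. In the RefSeq annotation the gene bodies of 25 members overlap another gene, among them Mrps18b (Gm16279), Mrpl18 (Tcp1), Mrps6 (Slc5a3), Mrps7 (Gga3 and Mif4gd) and Mrpl44 (Wdfy1), and pseudogenes are listed for Mrpl23, Mrpl27, Mrpl48 and Mrps36. The counts of these genes are uncertain to the extent that reads were shared.

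**Figure D2:**
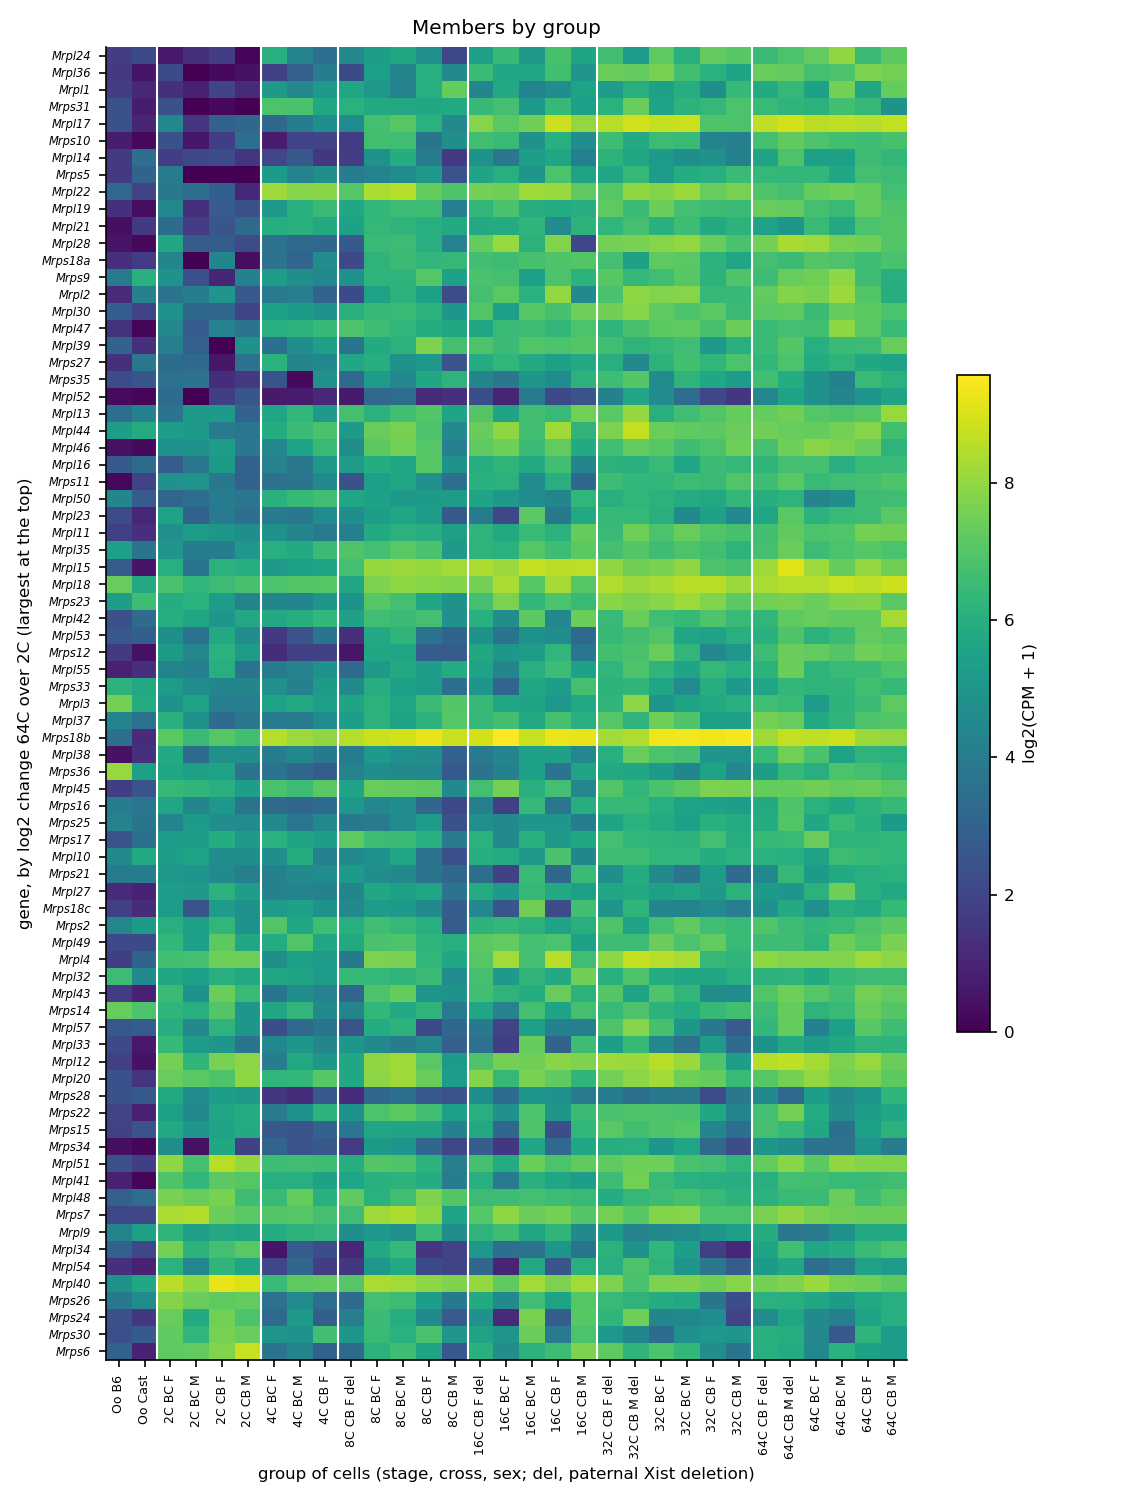
Level of each member (rows, ordered by log2 change of 64C over 2C) in each of the 31 groups (columns, by stage, with mutant groups, marked del, left of wild type), as log2(CPM + 1). Most rows are dark in oocytes; Mrps36, Mrps14 and Mrpl3 are among the exceptions, and the bottom rows are bright at 2C.

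Between oocytes and 2C, the time of the first large wave of embryonic transcription, more members were called higher than lower. Members were called lower at a rate near that of all genes. In edgeR's quasi-likelihood test across all wild-type groups (Benjamini-Hochberg adjusted p under 0.05), 27 of 77 members rose in 2C over oocytes, against 13.8% of 16622 genes, and 12 fell, against 13.2%. The median log2 change was 1.51 over members and 0.04 over all genes. This split depends on scaling. With scaling by library size alone, the median of all genes moved by 1.41 to 1.45, the members' median became 2.96, and 39 members were called higher and 2 lower.

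Mrpl41 and Mrpl12 had the largest rises. Mrpl41, a member without a bacterial homologue, had 122 and 79.7 CPM in 2C BC females and males and 142 and 130 CPM in CB females and males, against 0.833 CPM in B6 and 0.0949 CPM in Cast oocytes (log2 change 6.46, SE 0.933; edgeR adjusted p = 1.58e-05). Mrpl12, of the stalk that recruits translation factors, had 190, 75.9, 197 and 242 CPM in the same 2C groups, against 2.50 and 0.380 CPM in oocytes (5.42, SE 1.03; edgeR adjusted p = 3.07e-04). For both genes every 2C group lay far above both oocyte groups.

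The largest falls were those of Mrpl3 and Mrps36. Mrpl3, whose bacterial homologue lies near the peptidyl transferase centre, had 28.4, 45.8, 16.6 and 16.3 CPM at 2C, against 188 CPM in B6 and 59.4 CPM in Cast oocytes (log2 change -3.71, SE 0.634; edgeR adjusted p = 1.02e-04). Its groups did not overlap. Mrps36 had 48.1, 42.7, 45.1 and 11.6 CPM at 2C, against 271 CPM in B6 and 42.3 CPM in Cast oocytes (-3.63, SE 0.717; edgeR adjusted p = 4.65e-04). Here the Cast oocytes lay among the 2C groups, and without the B6 oocytes the change was -1.34 (adjusted p = 0.317). The other members called lower were Mrps9, Mrpl24, Mrps33, Mrpl14, Mrpl44, Mrps14, Mrps23, Mrpl32, Mrpl35 and Mrpl18. On the CPM scale every 2C group lay below both oocyte groups for 4 of 77 members, Mrpl3, Mrpl24, Mrpl44 and Mrps33, against 14.6% of genes. The groups of the other members called lower overlapped, as for Mrpl18, with 78.2 to 112 CPM at 2C and 53.6 to 160 CPM in oocytes.

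From 2C to 4C the members split again. In 4C over 2C, 14 of 77 rose, against 6.61% of all genes, and 6 fell, against 2.92%. Their median log2 change was 0.05, and that of all genes -0.05. With scaling by library size alone, the median of all genes was -0.40 and that of members -0.31, with 11 members called higher and 8 lower, and DESeq2 called 15 higher and 16 lower. The risers were led by Mrps31, a mitochondria-specific small-subunit protein, with 114, 113 and 53.0 CPM in 4C BC females, BC males and CB females, against 4.14, 0, 0.176 and 0 CPM in 2C BC females, BC males, CB females and CB males (6.73, SE 1.12; edgeR adjusted p = 3.66e-04). Mrpl22, whose bacterial homologue lines the exit tunnel, had 288, 227 and 231 CPM at 4C, against 13.6, 10.3, 6.34 and 1.07 CPM at 2C (5.37, SE 0.632; edgeR adjusted p = 7.40e-06). Both were low in oocytes too, at 4.16 and 0.664 CPM (Mrps31) and 8.55 and 2.85 CPM (Mrpl22) in B6 and Cast. From 8C to 64C they ranged from 28.6 to 115 CPM and from 103 to 367 CPM in wild-type groups.

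Mrpl34 and Mrps6, the members with the largest falls at 4C, had been high at 2C. Mrpl34, homologue of the small basic bacterial protein L34, had 0.469, 5.79 and 3.92 CPM at 4C, against 190, 71.3, 104 and 137 CPM at 2C (log2 change -4.89, SE 1.35; edgeR adjusted p = 0.0216). Mrps6 had 12, 19 and 6.85 CPM at 4C, against 145, 153, 218 and 440 CPM at 2C (-3.93, SE 0.962; edgeR adjusted p = 0.0102). Mrps12, of the decoding centre, Mrps28, Mrps26 and Mrpl40 also fell, by 3.85, 3.37, 3.19 and 1.42 on the log2 scale. For Mrpl34 and Mrps6 the groups of the stages were far apart. The call of Mrpl34 was nevertheless lost without any 1 of the 3 groups at 4C, and that of Mrps6 without BC or CB females. Without BC females 11 members were called, all higher, and without CB females 12, of which 10 were higher.

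In 8C over 4C, 2 members were called, both higher, against 0.367% of genes called higher. Mrps10, homologue of bacterial S10, had 99.9, 97.6, 12.3 and 26.4 CPM in 8C BC females, BC males, CB females and CB males, against 0.648, 2.84 and 2.98 CPM at 4C (log2 change 4.88, SE 1.04; edgeR adjusted p = 0.0341). Mrpl15 had 265, 281, 263 and 306 CPM at 8C, against 34.6, 42 and 47.1 CPM at 4C (3.05, SE 0.668; edgeR adjusted p = 0.0351). Across the family 66 of 77 estimates lay above 0, with a median of 1.18 (0.05 over all genes), and 34 had an unadjusted p under 0.05. The 8C BC groups pool cells with lower and higher title numbers, whose summed levels did not overlap. The part of this mixture in the median was not tested. Leaving out any of the 3 groups at 4C ended both calls, while DESeq2 called 26 members, all higher.

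No member was called at the later steps. In 16C over 8C, with 0.614% of genes called in either direction, the smallest p belonged to Mrpl17 (log2 change 1.70, SE 0.637; edgeR adjusted p = 0.173) and Mrpl10 (1.38, SE 0.610; edgeR adjusted p = 0.230). In 32C over 16C, with 0.632% of genes called, these were Mrpl53 (2.03, SE 0.688; edgeR adjusted p = 0.179) and Mrps30 (-1.62, SE 0.704; edgeR adjusted p = 0.273). In 64C over 32C, with 0.138% of genes called, they were Mrps28 (2.01, SE 0.695; edgeR adjusted p = 0.241) and Mrps36 (1.64, SE 0.611; edgeR adjusted p = 0.267). Unadjusted p was under 0.05 for 7, 5 and 2 members at the 3 steps, and DESeq2 called 0, 1 and 1. The medians of members were 0.28, 0.25 and 0.44, beside -0.10, 0.00 and 0.00 over all genes.

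Over the cleavage stages as a whole, most of the family was higher. In 64C over 2C, 52 of 77 members rose, against 18.3% of genes, and 0 fell, against 20.6%; 57 had an unadjusted p under 0.05, and DESeq2 called 53 higher and 2 lower. The members' median log2 change was 2.28, against 0.00 over all genes. With scaling by library size alone the medians were 1.69 and -0.58, with 40 members called higher and 3 lower. On the CPM scale every 64C group lay above every 2C group for 46 members, against 13.5% of genes. The reverse held for 3 members, Mrps26, Mrps30 and Mrps6, against 21.5% of genes.

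The 6 members with the largest rise had low levels at 2C, at most 20.6 CPM. Mrpl24, homologue of the bacterial protein that starts large-subunit assembly, had 154, 252, 91.1 and 143 CPM in 64C BC females, BC males, CB females and CB males, against 0.565, 1.52, 2.29 and 0.0888 CPM in the same 2C groups (log2 change 7.91, SE 0.949; edgeR adjusted p = 1.05e-06). Its gene body (chromosome 3, 87918131 to 87923450, GRCm38.p6) overlaps Rrnad1, and since the strand of counting is not given, reads of the pair may be mixed. Mrpl36 had 103, 118, 204 and 184 CPM at 64C, against 3.39, 0, 0.176 and 0.355 CPM at 2C (7.80, SE 1.07; edgeR adjusted p = 6.29e-06).

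Mrpl1, of the mobile L1 stalk, had 43.1, 191, 49.5 and 159 CPM at 64C, against 1.51, 0.845, 2.99 and 1.24 CPM at 2C (log2 change 6.71, SE 0.893; edgeR adjusted p = 4.07e-06). In both crosses its level was higher in 64C males than in 64C females. This difference was not tested, and the CB males were 2 cells. Mrps31 had 70.8, 102, 81.5 and 28.6 CPM at 64C (6.63, SE 1.10; edgeR adjusted p = 6.56e-05). Mrpl17, beside the exit tunnel, had 382, 399, 363 and 413 CPM at 64C, against 20.6, 1.86, 6.87 and 8.52 CPM at 2C (5.97, SE 0.771; edgeR adjusted p = 2.73e-06). Mrps10 had 117, 101, 94.8 and 110 CPM at 64C, against 4.23, 0.507, 2.47 and 9.86 CPM at 2C (5.20, SE 0.930; edgeR adjusted p = 1.47e-04). For each of the 6 the stages did not overlap.

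**Figure D3:**
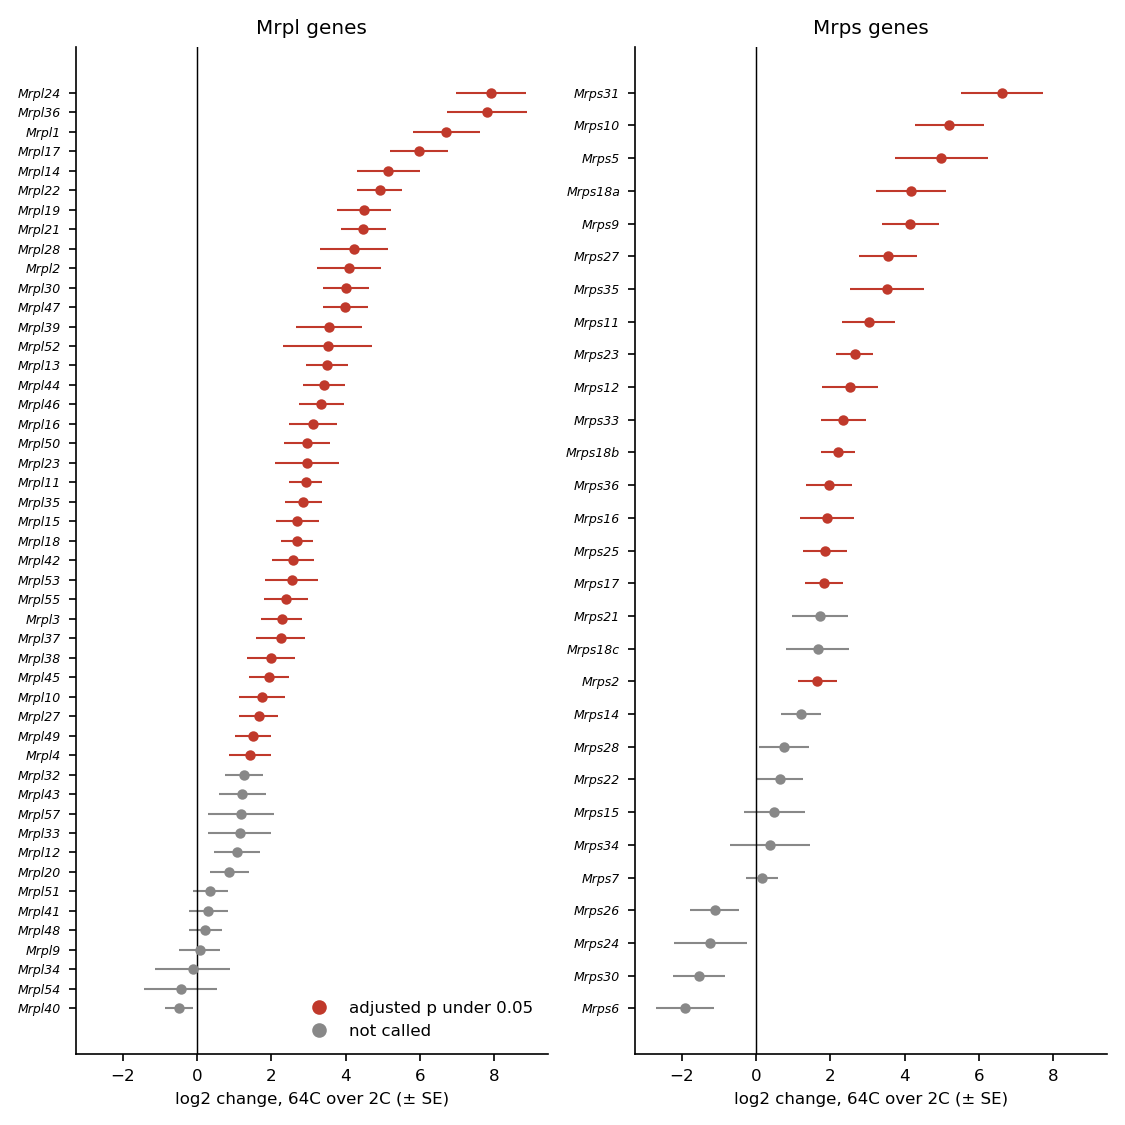
Log2 change of 64C over 2C (x axis, edgeR estimate ± SE) for 48 Mrpl and 29 Mrps genes (y axis). Red points passed an adjusted p of 0.05, 35 in the left panel and 17 in the right, and all of them lie above 0.

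Both members with and members without a bacterial homologue rose. Among 46 listed with a homologue 32 rose (median log2 change 2.61). Among 30 listed as specific to mitochondrial ribosomes 19 rose (median 2.1), and Mrps36 was put in neither class. The 30 include Mrps18a and Mrps18b, although both are S18 relatives like Mrps18c, which was listed with a homologue. The counts and medians of the classes depend on that placement. The difference between the classes was not tested. Of members picked for their role, Mrps5 (4.99), Mrps18a (4.17), Mrpl44 (3.41), Mrps12 (2.53), Mrpl3 (2.28), Mrps18b (2.21), Mrps36 (1.96), Mrps16 (1.90) and Mrpl10 (1.75) rose. The estimates of Mrps18c (1.66), Mrpl33 (1.14), Mrpl12 (1.06), Mrps22 (0.63), Mrps34 (0.37) and Mrps30 (-1.53) did not pass. Thus 2 of the S18 relatives, Mrps18a and Mrps18b, were called and Mrps18c was not (edgeR adjusted p = 0.117). The call of Mrps16 was lost without any 1 of 6 of the 8 groups, among other settings, and that of Mrpl10 without 2C CB males or 64C BC males.

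Mrps30, specific to mitochondrial ribosomes, ran against most of the family. It had 21.9, 5.38, 73.9 and 37.9 CPM at 64C, against 150, 78.2, 194 and 164 CPM in the same groups at 2C, and 4.01 and 5.5 CPM in B6 and Cast oocytes. The 64C groups lay below all 2C groups. The test gave an adjusted p of 0.0827 (log2 change -1.53, SE 0.702; edgeR), and scaling by library size alone gave -2.08 (adjusted p = 0.0278). Mrps6 was also below all 2C groups, with 20.9, 67.6, 43.5 and 37 CPM at 64C, against 145, 153, 218 and 440 CPM at 2C (-1.91, SE 0.783; edgeR adjusted p = 0.0544). The estimate for Mrps26 was -1.12 (SE 0.667; edgeR adjusted p = 0.185). Mrps22, Mrps34 and Mrpl12 changed sign between analyses and are therefore given no direction.

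Promoters were looked up because nuclear genes of mitochondria are known targets of NRF1, of the ETS factor GABPA and of YY1. RefSeq promoters (GRCm38.p6, 250 bases before to 50 after the start) were found for 68 of the 77 members. Both strands were searched for the 8 letters GCGCATGC (NRF1 core), CCGGAAGT (ETS core) and AAGATGGC (YY1 core). The NRF1 core was in the promoters of 8 members (11.8%), against 3.05% of 27025 genes and 3.94% of 17492 protein-coding genes. The ETS core was in 12 (17.6%), against 4.31% and 5.69%, and the YY1 core in 12 (17.6%), against 3.19% and 3.57%. Any of the 3 was in 29 members (42.6%), against 9.91% and 12.3%. The YY1 core began at a median of 15 bases after the start. The start is that of the promoter table, which for some members lies inside the gene's annotated span, among them Mrpl9, Mrpl18, Mrpl22, Mrpl36 and Mrpl48. The windows printed here show each core in members named above, among them Mrpl17 and Mrpl36 of the 6 largest rises; they run in the direction of transcription, with the motif in capitals.

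Mrpl17, NRF1 core, chr7:105811081-105811108, minus strand: ccgagttactGCGCATGCgtcctctgag
Mrpl22, NRF1 core, chr11:58171621-58171648, plus strand: gcctcggactGCGCATGCgtatagtcag
Mrpl33, ETS core, chr5:31613938-31613965, plus strand: cgcgcatgccCCGGAAGTagtcgttgag
Mrpl3, ETS core, chr9:105053239-105053266, plus strand: gagaaacggaCCGGAAGTggcccggctg
Mrpl36, YY1 core on the opposite strand, chr13:73330969-73330996, plus strand: gtgaccttacGCCATCTTtcttcctggc
Mrps18a, YY1 core, chr17:46111005-46111032, plus strand: ggtgcgttccAAGATGGCggccctcagg

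In Mrpl33 the NRF1 core stands shortly before the ETS core, in the lower-case letters of its window. Counted from the start, it spans -12 to -5 and the ETS core -3 to 4. Of the members with any of the 3 cores, 18 of 29 rose in 64C over 2C (median log2 change 2.21), and 28 of 39 with none (median 2.54). By core, 5 of 8 rose with the NRF1 core (median 1.98), 5 of 12 with the ETS core (median 1.44) and 9 of 12 with the YY1 core (median 2.55). These differences were not tested. A match is a description of letters and shows no binding.

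The genes of 2 of these factors, Gabpa and Yy1, were low in oocytes, high at 2C and lower again at 64C. Gabpa had 372 to 530 CPM at 2C, against 1.52 to 2.04 CPM in oocytes (log2 change 6.51, SE 0.722; edgeR adjusted p = 1.03e-06), and 43.9 to 152 CPM at 64C, a fall against 2C (-1.77, SE 0.420; edgeR adjusted p = 0.00218). Yy1 had 277 to 381 CPM at 2C, against 0.380 to 4.47 CPM in oocytes (5.51, SE 0.949; edgeR adjusted p = 1.13e-04), and 32.4 to 97.7 CPM at 64C, again lower than at 2C (-1.87, SE 0.585; edgeR adjusted p = 0.0150). Nrf1 was not called at either contrast (0.42 and -0.19). Of 8 tested regulators, 3 rose and 4 fell in 64C over 2C, with a median of -0.85, against 18.3% and 20.6% of all genes.

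Among proteins that act with the ribosome, 5 of 6 mitochondrial ribosomal proteins with other symbols rose in 64C over 2C, Dap3 (2.71), Ptcd3 (2.16), Aurkaip1 (2.1), Chchd1 (1.98) and Ict1 (2.89). Of 11 translation factors 3 rose, among them Tufm, the elongation factor that delivers aminoacyl-tRNA (3.41, SE 0.474; edgeR adjusted p = 7.20e-06). Of 20 assembly factors 9 rose and 2 fell, Noa1 (-5.21) and Nsun4 (-2.99). Of 17 mitochondrial aminoacyl-tRNA synthetases 4 rose. Beside these counts, 18.3% of all genes were called higher and 20.6% lower in 64C over 2C. Of 4 transcription genes, Tfam, which packages mitochondrial DNA, rose (2.61), while Tfb2m (-2.89) and the polymerase Polrmt (-1.68) fell. Of 81 cytosolic ribosomal protein genes 44 rose and 0 fell (median 1.73). In 2C over oocytes 60 of these 81 rose and 0 fell (median 3.47), against 13.8% and 13.2% of all genes.

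No member's level was called different between the reciprocal crosses. In BC over CB, over 11 pairs of the same stage and sex, 0 of 77 members were called, against 0.0124% of 16171 genes; 6 had an unadjusted p under 0.05 and DESeq2 called 2. Those with the smallest p were Mrpl28 (log2 change 1.21, SE 0.368; edgeR adjusted p = 0.312), Mrps7 (0.76, SE 0.239; edgeR adjusted p = 0.312), Mrpl22 (0.80, SE 0.269), Mrpl2 (1.05, SE 0.408) and Mrps23 (0.63, SE 0.260). The members' median was 0.19 and that of all genes 0.33. The summed level differed most at 8C in males, with 7530 CPM in BC and 3451 CPM in CB, where the CB group is 1 cell; 67 of 77 members were higher in BC there (median log2 ratio 1.90, against 0.68 over all genes). In 8C females BC had 7082 CPM and CB 6146 CPM. In 16C females BC had 6575 CPM and CB 7802 CPM, and in 16C males 7454 and 7089 CPM. At 32C the BC and CB sums were 9441 and 6600 CPM in females and 8771 and 6287 CPM in males. At 64C they were 8619 and 9627 CPM in females and 9318 and 9349 CPM in males. At 2C and 4C the BC sum was the lower in each of the 3 pairs.

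No member's level was called different between mutant and wild-type blastomeres. In mutant over wild-type CB females, over the 4 stages, 0 of 77 members were called, against 0% of 14304 genes, 0 had an unadjusted p under 0.05, and DESeq2 called 0. The smallest p-values were those of Mrps5 (log2 change -0.91, SE 0.423), Mrpl11 (-0.93, SE 0.453), Mrpl18 (-0.89, SE 0.441), Mrpl55 (-1.0, SE 0.497) and Mrpl16 (-0.89, SE 0.449), each with an edgeR adjusted p of 1.0. The median was -0.32 over members and 0.12 over all genes, and 58 of 77 estimates lay below 0. Without the 8C pair the members' median was 0.07. The summed level was 3229 CPM in mutant and 6146 CPM in wild-type females at 8C, 6593 and 7802 CPM at 16C, 8697 and 6600 CPM at 32C, and 8434 and 9627 CPM at 64C. At 8C, 64 of 77 members were lower in mutants on the CPM scale (median log2 ratio -1.15, against 0.03 over all genes tested). The 8C mutant cells had 2453 to 4942 CPM (median 2817). Wild-type CB cells of both sexes at that stage had 3451 to 7859 CPM (median 5925). The mutant cells lay within the range of the wild-type BC cells, which pools the lower and higher title numbers. Without mutant cells 7 and 9 the fitted median was -0.27.

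In mutant over wild-type CB males, over 32C and 64C, 0 of 77 members were called, against 0% of 11147 genes; 5 had an unadjusted p under 0.05 and DESeq2 called 2. Mrps22 (log2 change 2.33, SE 0.726), Mrpl12 (2.12, SE 0.671), Mrpl2 (1.78, SE 0.613), Mrpl38 (2.03, SE 0.700) and Mrpl57 (3.09, SE 1.28) had the smallest p, each with an edgeR adjusted p of 1.0. Mrpl12 had 280 and 400 CPM in mutant males at 32C and 64C, against 40 and 166 CPM in wild-type males. Summed levels were 10069 CPM in mutant and 6287 CPM in wild-type males at 32C, and 10865 and 9349 CPM at 64C. Mutant and wild-type cells stand in separate tables, and in females the genotype cannot be told apart from collection. Males labelled mutant inherit no X chromosome from the father, so their contrast compares the collections without that deletion.

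The paternal share is the part of a gene's reads that, where an allele could be assigned, carried the father's allele. Group medians of the members' shares began below equality and came to lie near it. They were taken over the members with a share in a group, 46 to 56 at 2C and 69 or 70 in wild-type 64C groups. In oocytes, which hold no paternal allele, 48 shares of members had a median of 0, and 3 exceeded 0.1: Mrpl13 (0.118), Mrpl39 (0.137) and Mrps6 (0.333), all in B6. These set the background for the same genes. The median share of members, averaged over groups, was 0.411 ± 0.0568 in 2C (SD, 4 groups), 0.457 ± 0.00768 in 4C (3 groups) and 0.497 ± 0.0207 in 8C blastomeres (4 groups). It was 0.503 ± 0.0290 in 16C, 0.488 ± 0.0224 in 32C and 0.498 ± 0.0239 in 64C blastomeres (4 groups of every stage). Over all autosomal genes it was 0.334 ± 0.0866 in 2C, 0.460 ± 0.0447 in 8C and 0.505 ± 0.00752 in 64C groups. The 2C medians of the members lay above the autosomal median in both BC groups (0.491 and 0.379, against 0.335 and 0.211), and in CB they were 0.411 and 0.363, against 0.393 and 0.396.

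**Figure D4:**
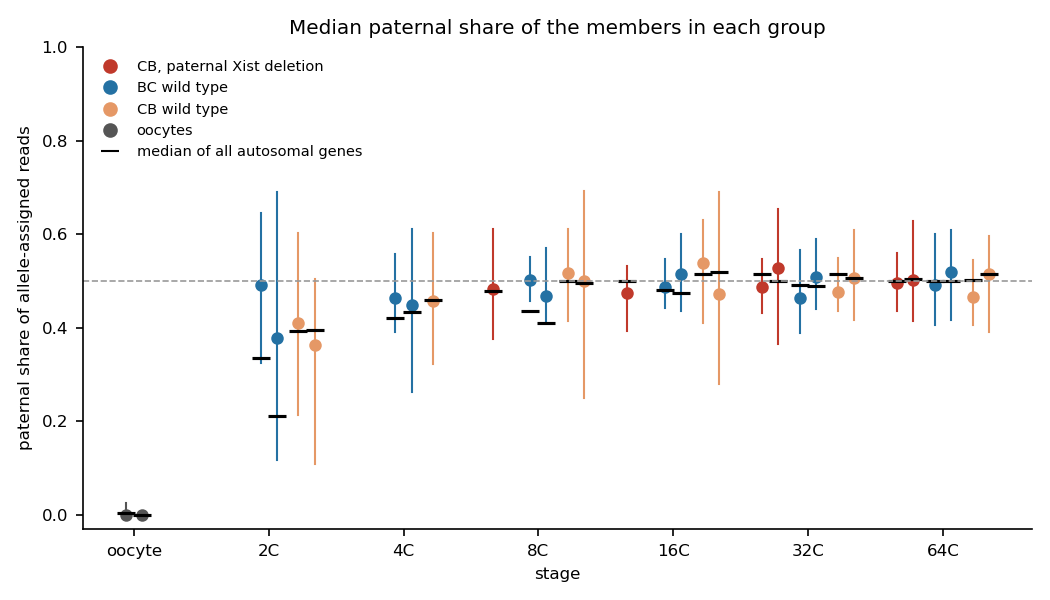
Paternal share (y axis) by stage (x axis). Points are the median over members in a group, vertical lines the quartiles over members, and black dashes the median over all autosomal genes of that group; from 8C on the wild-type points lie between 0.463 and 0.538.

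In 64C minus 2C, 39 members had a share in all groups of both stages, with a median difference of 0.056 (0.104 over all genes). Of these, 1 was called higher, against 6.09% of 2855 genes, and 1 lower, against 0.105% (limma on group means, Benjamini-Hochberg adjusted p under 0.05). Mrps25, a small-subunit protein with a thioredoxin fold, had shares of 0.494, 0.393, 0.404 and 0.650 in 64C BC females, BC males, CB females and CB males, against 0.440, 0, 0 and 0 in the same 2C groups (difference 0.375, SE 0.106; limma adjusted p = 0.0394). Paternal reads were thus seen at 2C in BC females only, and the gene body overlaps Nr2c2. Without any 1 of 5 of these groups the call was lost. Mrpl55 went the other way, with 0.132, 0.505, 0.499 and 0.529 at 64C, against 0.815, 0.727, 0.955 and 0.857 at 2C (-0.422, SE 0.101; limma adjusted p = 0.0172). Every 2C group was above every 64C group, in both crosses, so the paternal excess at 2C was an excess of the Cast allele in BC and of the B6 allele in CB. Without 64C BC females the difference was -0.327 (adjusted p = 0.0575). Mrpl46 (0.230, SE 0.0923; limma adjusted p = 0.146) and Mrpl13 (0.251, SE 0.109; limma adjusted p = 0.182) were next.

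Averaged over the crosses, no member was called away from equal shares at 8C to 64C. The mean of BC and CB over 8 pairs of stage and sex was called for 0 of 48 members against 0.5, beside 0.720% of 2500 genes; 2 had an unadjusted p under 0.05. The smallest p-values were those of Mrpl43 (0.0705 above, SE 0.0251; limma adjusted p = 0.376), whose gene body overlaps Twnk, Mrpl1 (-0.136, SE 0.0529), Mrpl9 (0.0819, SE 0.0444) and Mrpl20 (0.0325, SE 0.0184). The members' median difference was -0.001 and that of all genes -0.007.

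A few members differed between the crosses in the share of the father's allele, at a rate near or below that of all genes tested. A positive difference in BC minus CB means a larger share of the Cast allele, since BC embryos take the Cast allele from the father and CB embryos the B6 allele. Of 48 members, 3 were called higher, against 5.36% of 2500 genes, and 1 lower, against 8.80%. Mrpl39, a mitochondria-specific large-subunit protein, had paternal shares of 0.434 to 0.756 (median 0.614) in 8 BC groups, against 0.145 to 0.521 (median 0.428) in 8 CB groups (difference 0.213, SE 0.0470; limma adjusted p = 0.0121). In B6 oocytes, which hold no Cast allele, its share assigned to Cast was 0.137. Mrpl27, at the peptidyl transferase centre, had 0.560 to 0.714 (median 0.642) in BC, against 0.0169 to 0.562 (median 0.463) in CB (0.213, SE 0.0553; limma adjusted p = 0.0280). Mrpl49 had 0.575 to 0.723 (median 0.623) in BC, against 0.188 to 0.581 (median 0.433) in CB (0.215, SE 0.0602; limma adjusted p = 0.0367).

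Mrps33 was the member with more of the B6 allele, with 0.205 to 0.483 (median 0.344) in BC, against 0.210 to 0.846 (median 0.671) in CB (difference -0.284, SE 0.0646; limma adjusted p = 0.0141). Of its CB groups, 64C males at 0.210 and 32C males at 0.443 lay among the BC values and the other 6 at 0.598 to 0.846. The 6 mutant groups, all CB and not used in that test, had 0.470 to 0.850 for Mrps33 (median 0.700). They had medians of 0.447 for Mrpl39, 0.418 for Mrpl27 and 0.364 for Mrpl49. The gene bodies of Mrpl27 and Mrpl49 overlap Eme1 and Syvn1, and a bias in aligning reads of either strain has the same form as a strain difference, so these cannot be told apart. Mrpl27 and Mrpl49 lost the call when single pairs were left out, and the count was then 2 without 8C, 16C or 32C females.

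**Figure D5:**
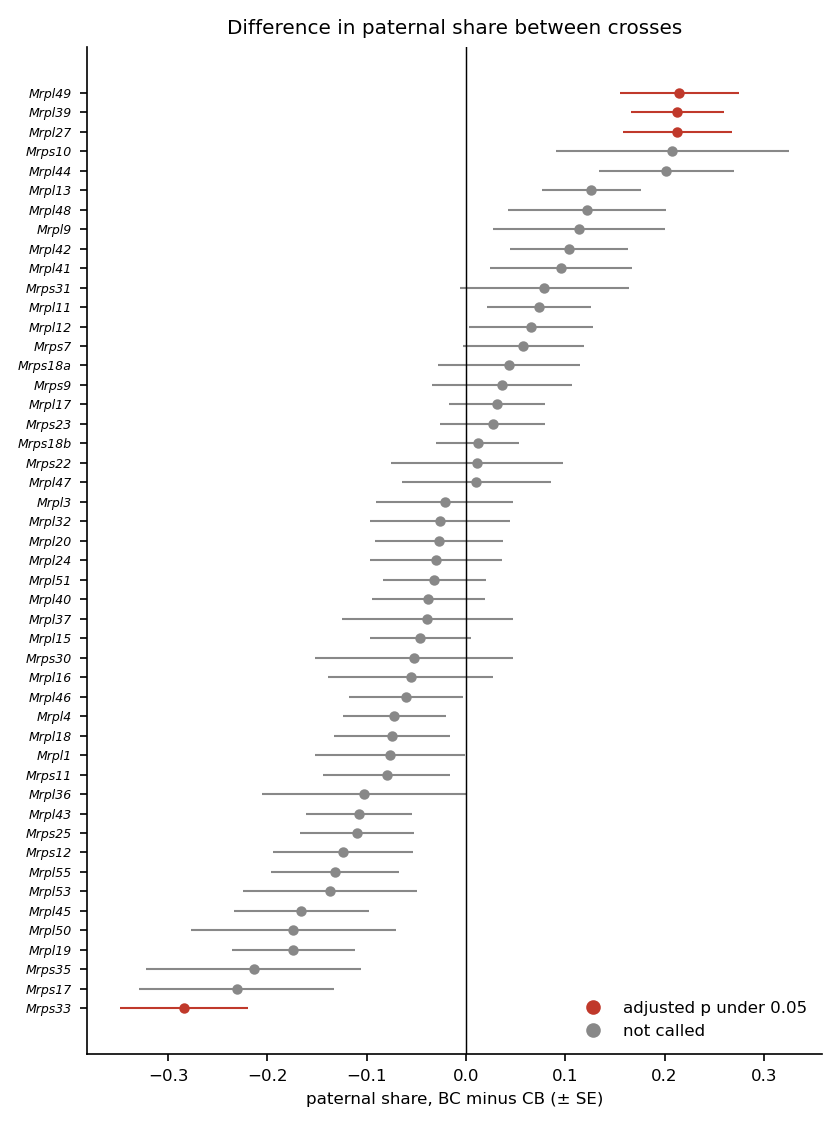
Difference in paternal share, BC minus CB (x axis, limma estimate ± SE over 8 pairs of stage and sex), for 48 members (y axis). The red points passed an adjusted p of 0.05: Mrpl39, Mrpl27 and Mrpl49 at 0.213 to 0.215 and Mrps33 at -0.284.

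No member's paternal share was called different in mutants. In mutant minus wild-type CB females, 0 of 56 members were called, against 0% of 4756 genes, and 0 had an unadjusted p under 0.05. Differences ranged from -0.208 to 0.124. Those with the smallest p were Mrpl1 (0.124, SE 0.0585), Mrpl49 (-0.133, SE 0.0694), Mrps17 (-0.134, SE 0.0774) and Mrpl43 (-0.208, SE 0.128), with limma adjusted p of 0.939 for the first 3 and 0.942 for Mrpl43. With SEs of 0.0508 to 0.128, differences of that size were not detectable with 4 groups of each genotype.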

How the data were processed

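Per the submitters' processing notes, the tools were TopHat2 2.1.0, HTSeq 0.6.1 and SAMtools with genome mm10. Settings, strandedness of counting and the assignment of alleles were not given in the sources used here. Deposited were raw read counts, a normalized signal and an allelic fraction, per gene and cell. From its values the signal was taken as scaled for depth and length. The fraction was read as the paternal share because it lies near 0 in oocytes of both strains and for X-linked genes of males. The read depth behind a share is unknown, so no interval is given.

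Counts were summed by stage, cross, sex and genotype and tested with edgeR 4.0.16 (quasi-likelihood test, TMM, filterByExpr; R 4.3.3). A single fit over 25 wild-type groups served the stages. Pairs of stage and sex were blocks for the crosses, and stages for the genotype. Group means of shares were tested with limma 3.58.1, a cell entering where the gene had at least 10 counts. Every p was adjusted over all genes tested, and all 77 members passed the filter on low counts. Cells of a group were compared in 891 pairs, and none agreed within counting noise (lowest chi-square 16.1 per degree of freedom). For 1 cell at 2C the title (CB) and the strain label (BC) differ, and the title decided its group.

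Alternatives were DESeq2 1.42.0, other scalings, no filter, limma on log2(CPM + 1) or log2(signal + 1), groups of at least 2 cells, share minimums of 1 and 30 counts, and leaving out groups. Scaling by library size alone was added after seeing the data. The scripts were tested on simulated data. The members and lists were chosen with earlier results of these data known. Named members were 15 picked by role, those with the largest called changes between stages (the smallest p where none was called), those with the smallest p in the other comparisons, and the highest and lowest by signal. The wild-type Mrpl and Mrps sums and the 8C cell ranges are descriptions.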

Additional observations from a re-analysis of the deposited data

Results flagged for a closer look

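In 67 sets of 4 to 10 values, the highest or lowest value was tested for standing apart from the others at a level where chance marks about 1 set in 20 (5%), and 6 did. Among 5 wild-type BC males at 8C, cell 14 had 3702 CPM of members and the other 4 had 7686 to 8261. Among 6 wild-type BC males at 64C, cell 24 had 11908 CPM, with the next cell at 9357 and the lowest at 8268. At 2C, BC females stood above the other 3 groups in Mrpl36 (3.39 CPM, next 0.355), Mrps31 (4.14 CPM, next 0.176) and Mrps5 (15.6 CPM, against 0 in the other 3), each of which was among the members that rose in 64C over 2C. Mrps36 was lowest in 2C CB males, at 11.6 CPM, with the other groups at 42.7 to 48.1.

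Mrpl55 was lower in mutants at every stage in females and higher at both stages in males. The mean log2 ratio of CPM + 1, mutant over wild type, was -0.86 in females (4 stages) and 0.71 in males (32C and 64C). The difference between the sexes was not tested.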

How the results depend on the processing

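Over the alternatives tried, 168 of 192 counts of called members stayed within 1.5 times the main count. In 64C over 2C the count ranged from 40 to 55, and leaving out single groups gave 47 to 55. DESeq2 called 31 members in 4C over 2C, 26 in 8C over 4C, 1 in 32C over 16C, 1 in 64C over 32C, 2 in BC over CB and 2 in mutant over wild-type males. In 8C over 4C, scaling by library size alone gave 1, limma on the authors' signal 1, and groups of at least 2 cells 11. With the median share over cells 1 member was called in 64C minus 2C. Leaving out single groups or pairs gave 24 to 36 members in 2C over oocytes (24 without B6 oocytes), 11 to 19 in 4C over 2C, 0 to 3 in 8C over 4C (1 without 8C BC or CB females), 2 to 6 for BC minus CB shares and 0 to 2 for 64C minus 2C shares (0 without 64C BC females, 1 without 2C BC males or 64C CB males). Among the members named for 64C over 2C, 3 changed sign. Mrpl12 was at -0.49 on the authors' signal. Mrps22 was at -0.80 with limma on CPM and -1.73 on the signal. Mrps34 was at -0.25 with library-size scaling and -0.46 on the signal. Sign changes of other members are not counted here. For Mrpl51 the mean over wild-type groups was 207 CPM at 64C and 248 CPM at 2C, beside a main estimate of 0.35. Where no cause is evident from a setting itself, the cause was not tested. No paired analysis was possible because sums over cells carry no replicate numbers (the blocks of stage and sex in the cross and genotype fits are a different pairing, by group). The read depth behind the shares is unknown, and groups of 1 cell limit the 2C, 8C and 16C stages.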

Other observations

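Of 17 aminoacyl-tRNA synthetases of mitochondria, which charge the tRNAs the mitochondrial ribosome reads, 7 rose and 1 (Wars2) fell in 2C over oocytes, against 13.8% and 13.2% of all genes (median log2 change 2.37, against 0.04 over all genes). In 4C over 2C 1 was called, Wars2, higher, against 6.61% of all genes. Of 20 assembly factors of the ribosome, 5 rose in 4C over 2C, Fastkd2, Gtpbp10, Mterf3, Rnmtl1 and Rpusd4, against 6.61% of genes, and 1, Ngrn, fell, against 2.92%. In 2C over oocytes Fastkd2, Gtpbp10, Mterf3 and Rpusd4 had been called lower. The 2 steps share the 2C groups, so a low 2C level enters both.

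Among the members that fell in 2C over oocytes, Mrpl24, Mrpl35 and Mrpl44 were called higher in 4C over 2C, with the same caution on the shared 2C groups. Mrpl24 changed by -2.85 and 5.25, Mrpl35 by -1.64 and 1.90, and Mrpl44 by -2.38 and 2.18 on the log2 scale at the successive steps. The fall of Mrpl24 was between low levels, 2.35 and 3.42 CPM in oocytes and 0.0888 to 2.29 CPM at 2C. For Mrpl35 the oocyte groups, at 11.8 and 41.4 CPM, lay on both sides of the 2C groups, at 15.2 to 33.8 CPM. For Mrpl44 they were 39.1 and 58.2 CPM, above 12.4 to 37.8 CPM at 2C. The reverse course, a rise in 2C over oocytes and a fall in 4C over 2C, was called for Mrps6 (4.43 and -3.93), Mrps12 (3.51 and -3.85) and Mrpl40 (2.1 and -1.42).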
